A study of Mus musculus with 15 samples.

Results

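The alternative activation genes described here are 10 genes that mark or direct the response of macrophages to IL-4 and IL-13: *Arg1*, *Arg2*, *Mrc1*, *Chil3*, *Il4ra*, *Stat6*, *Cd163*, *Tgm2*, *Klf4* and *Egr2*. They were chosen by name, with earlier results of these data known, and all 10 were found among the 54390 genes of the count tables. The data are bulk RNA-seq counts from 15 libraries of BV2, an immortalized mouse microglial line. WT non-foamy cells (n = 4) and Trem2-/- non-foamy cells (n = 3) received media alone, whereas WT foamy cells (n = 4) and Trem2-/- foamy cells (n = 4) received 20 μg/ml soluble cholesterol, carried by methyl-beta-cyclodextrin, overnight. Trem2 is a lipid receptor of macrophages and microglia. The Trem2-/- line came from BV2 cells carrying Cas9, which were given a guide RNA against *Trem2* and grown from single cells, so it is a clone, and whether the WT cells carried Cas9 is not given in the sources used here. Features of the clone and the loss of Trem2 therefore cannot be told apart. Cells in media alone received no carrier, so effects of cholesterol and of its carrier cannot be told apart either. The labels do not say that libraries of a group came from separate cultures, so p-values measure the spread between these libraries, which may be technical.

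When IL-4 or IL-13 binds a receptor containing the IL-4 receptor alpha chain (*Il4ra*), Janus kinases phosphorylate STAT6, which enters the nucleus and switches on genes of alternative activation. In mouse macrophages these classically include the arginase *Arg1*, the mannose receptor *Mrc1* and the secreted proteins *Chil3* and *Retnla*, while KLF4 and EGR2 act as transcription factors of the same program. Arginase turns arginine into ornithine, the precursor of polyamines, and competes for arginine with the inducible nitric oxide synthase, *Nos2*, a marker of classical activation.

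Each library held 23538963 to 41683825 counted reads. Levels are counts per 1e+06 reads (CPM) after scaling of library sizes by the TMM method, as mean ± s.d. over the libraries of a group, and differences as log2 fold changes (log2FC) with the standard error (s.e.) of the fit. A gene was called changed when its p-value in edgeR's quasi-likelihood test, adjusted by the Benjamini-Hochberg method over 14237 tested genes, was under 0.05. *Trem2* itself was still counted in the Trem2-/- libraries, at 214 to 232 CPM against 327 to 415 CPM in the WT libraries. It was called lower, with a log2FC of −0.67 without and −0.73 with cholesterol (adjusted p = 2.85e-07 and 7.09e-08, edgeR). Counts measure the transcript, and the study checked the loss of Trem2 protein in the line by flow cytometry. Of 10 macrophage and microglia markers, 9 or 10 per group were over 1 CPM in every library of the group, and their summed level was 6327 to 8243 CPM in WT and 10501 to 11765 CPM in Trem2-/- libraries. The largest part of that sum was *Lyz2*, at 3461 CPM on average in WT and 6193 CPM in Trem2-/- libraries. Averages were also higher in Trem2-/- libraries for *Cd68* (1285 and 1636 CPM), *Tyrobp* (1265 and 1761 CPM), *Fcer1g* (551 and 731 CPM) and *Adgre1* (225 and 342 CPM). So were those of *Ptprc* (261 and 318 CPM), *Aif1* (12.6 and 17.7 CPM) and *Itgam* (27.4 and 30.7 CPM). *Spi1* had 95.2 and 99.8 CPM, and *Cx3cr1*, a chemokine receptor of microglia, was lower, at 1.28 and 0.419 CPM. The hepatocyte markers *Alb*, *Cps1*, *Ttr* and *Serpina1a*, checked because liver is rich in arginase, were at 0 in all 15 libraries, and so were all 5 fibroblast markers. Among markers of other cells, *Cnp* of oligodendrocytes had 14.2 to 22.3 CPM and *Kdr* of endothelium 2.10 to 8.44 CPM as group means, both highest in WT non-foamy cells, while *Mog*, *Olig2* and *Cldn5* were at 0. Astrocyte markers summed to at most 0.0633 CPM and neuron markers to at most 0.348 CPM in any library. T cell markers summed to 0.484 to 1.26 CPM in WT and 1.15 to 3.09 CPM in Trem2-/- libraries, nearly all of it *Cd4*, and *Cd3g* was at 0. The part of these differences in the results was not tested. Since a bulk library mixes cells, more cells with a transcript and more transcript per cell cannot be told apart.

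Of the 10 genes, 6 had enough counts to be tested (*Arg1*, *Mrc1*, *Il4ra*, *Stat6*, *Klf4* and *Egr2*), and these were counted in 15 of 15 libraries. The other 4 (*Arg2*, *Chil3*, *Cd163* and *Tgm2*) were at or near 0 in every group. *Arg1* and *Mrc1* were the genes with the lowest and the second lowest p-value among the 14237 tested genes in the comparisons of Trem2-/- with WT cells, both without and with cholesterol. Ordered by log2FC from the highest, they stood at ranks 31 and 115 without and 11 and 75 with cholesterol. Between foamy and non-foamy cells of a genotype they differed much less, by a log2 fold change of at most 0.33 in size. *Il4ra* was modestly higher in Trem2-/- cells, *Egr2* was called higher in the comparison without cholesterol and not in that with it, and *Stat6* and *Klf4* were not called in any comparison.

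To show the sequence next to the start of a gene that was called and of one that was not, the bases before the annotated starts of *Mrc1* (chr2:14229164-14229391, plus strand) and *Stat6* (chr10:127642736-127642985, plus strand) are given from RefSeq for GRCm38.p6, 5′ to 3′, with matches to the searched motifs in capitals.
Mrc1: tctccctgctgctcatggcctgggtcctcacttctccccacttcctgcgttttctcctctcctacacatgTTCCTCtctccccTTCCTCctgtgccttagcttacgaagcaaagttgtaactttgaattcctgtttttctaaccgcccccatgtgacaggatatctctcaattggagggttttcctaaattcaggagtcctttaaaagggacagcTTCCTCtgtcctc
Stat6: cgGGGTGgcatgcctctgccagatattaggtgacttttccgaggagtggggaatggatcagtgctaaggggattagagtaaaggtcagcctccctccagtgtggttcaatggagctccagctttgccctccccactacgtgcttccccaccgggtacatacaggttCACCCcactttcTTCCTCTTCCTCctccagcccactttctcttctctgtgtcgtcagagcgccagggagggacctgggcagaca

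In the *Mrc1* stretch the capitals mark 3 matches to GAGGAA, the core bound by PU.1, the master transcription factor of macrophages, and in the *Stat6* stretch they mark 2 adjoining matches to GAGGAA and 2 to CACCC, the core bound by KLF factors. In all, 10 motifs were searched on both strands of the 250 bases before RefSeq starts, and windows were found for 7 of the 10 genes (*Mrc1*, *Chil3*, *Il4ra*, *Stat6*, *Cd163*, *Klf4* and *Egr2*). No window was available for *Arg1*, *Arg2* or *Tgm2*. The STAT6 motif TTCNNNNGAA was in none of the windows found, against 5.85% of 32851 windows over all genes. At that share, 7 genes are too few for its absence to be read as a difference. TTCNNNGAA, bound by other STAT proteins, was in the *Chil3* window once and in 7.02% of all windows. GAGGAA was in 23.3% and CACCC in 52% of all windows, and *Il4ra* held 4 matches to CACCC. *Klf4* held 2 matches to GCGNGGGCG, bound by EGR factors, which 4.7% of all windows held. CACGTG was in the *Klf4* window and in an *Egr2* window, and in 6.02% of all windows. Other *Egr2* windows held GAGGAA or CACCC. These letters describe the windows and do not show that a factor bound there.

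Among the effector enzymes, *Arg1* (chr10:24915221-24927484, minus strand, GRCm38) had 16.7, 17.5, 16.4 and 15.04 CPM in the WT non-foamy and 13.8, 14.03, 14.5 and 14.7 CPM in the WT foamy libraries. In the Trem2-/- libraries it had 118, 123 and 108 CPM without cholesterol and 138, 141, 130 and 148 CPM with it. All 7 Trem2-/- libraries lay far above all 8 WT libraries, and within each genotype the foamy and non-foamy libraries also fell apart, in opposite order. The group means were 16.4 ± 1.03 and 14.3 ± 0.414 CPM in WT non-foamy and foamy cells (n = 4 each), and 116 ± 7.83 (n = 3) and 139 ± 7.25 CPM (n = 4) in Trem2-/- cells. Trem2-/- cells had 7.10-fold more *Arg1* without cholesterol (log2FC 2.83 ± 0.07 s.e., adjusted p = 4.18e-18, edgeR) and 9.78-fold more with it (3.29 ± 0.07 s.e., adjusted p = 8.69e-20).

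The response of *Arg1* to cholesterol differed between the genotypes. Its log2FC was −0.20 in WT cells (s.e. 0.07, adjusted p = 0.117, edgeR) and 0.26 in Trem2-/- cells (s.e. 0.07, adjusted p = 0.224), and neither was called, although in each genotype no foamy library overlapped a non-foamy one. The difference between the responses was 0.46 ± 0.09 s.e. (95% interval 0.27 to 0.66, adjusted p = 0.00796), and it was called in each of 21 alternative analyses that set no minimum fold change, with an adjusted p of 0.000461 to 0.0340. DESeq2, the study's own tool, called the response in Trem2-/- cells (adjusted p = 0.0385). *Arg2*, the mitochondrial arginase, had 14 counts in all, spread over 7 libraries with at most 6 in 1 library, and 28.1% of its exonic bases overlap genes on the opposite strand. Nearly all arginase counts were thus those of *Arg1*, which had at least 372 in every library.

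*Mrc1* (chr2:14229392-14332057, plus strand) encodes the mannose receptor CD206, an endocytic receptor for glycans. It had 37.9, 38.8, 39.2 and 39.9 CPM in the WT non-foamy and 47.8, 47.7, 49.0 and 51.3 CPM in the WT foamy libraries, and 148, 146 and 153 CPM in the Trem2-/- non-foamy and 162, 151, 153 and 165 CPM in the Trem2-/- foamy libraries. Trem2-/- libraries were again all above WT libraries, the WT foamy libraries were all above the WT non-foamy ones, and the Trem2-/- foamy and non-foamy libraries overlapped. *Mrc1* was 3.83-fold higher in Trem2-/- cells without cholesterol (log2FC 1.94 ± 0.06 s.e., adjusted p = 1.69e-16, edgeR) and 3.22-fold higher with it (1.69 ± 0.06 s.e., adjusted p = 8.55e-16). It rose with cholesterol in WT cells, from 38.9 ± 0.835 to 48.9 ± 1.68 CPM (0.33 ± 0.06 s.e., adjusted p = 0.00157), and its change in Trem2-/- cells was 0.08 ± 0.06 s.e. (95% interval −0.04 to 0.20, adjusted p = 0.867). The difference between the responses, −0.25 (s.e. 0.08), was not called by edgeR (adjusted p = 0.0841) and was called by DESeq2 (adjusted p = 0.0244).

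**Figure D1:**
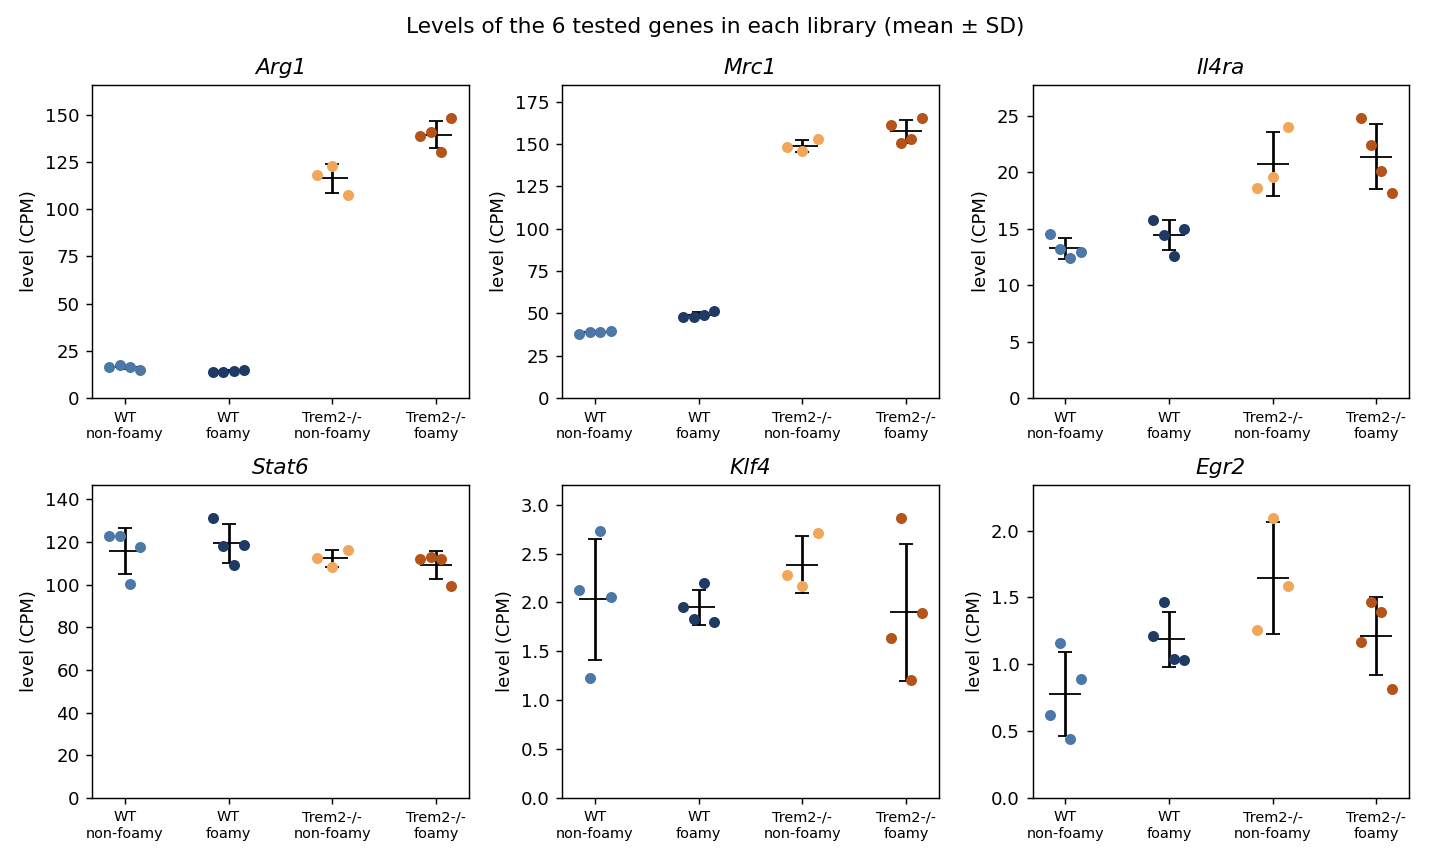
Levels in CPM of the 6 tested genes (1 panel a gene, linear axes from 0) in each of the 15 libraries by group, with bars for the mean ± s.d. of the 4, 4, 3 and 4 libraries. *Arg1* lies at 13.8 to 17.5 CPM in WT and 108 to 148 CPM in Trem2-/- libraries, and *Mrc1* at 37.9 to 51.3 and 146 to 165 CPM, while the groups of *Stat6* and *Klf4* overlap.

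The receptor chain *Il4ra* (chr7:125552120-125579474, plus strand) had 14.5, 13.2, 12.4 and 12.9 CPM in WT non-foamy, 15.8, 14.4, 12.6 and 14.97 CPM in WT foamy, 18.6, 19.6 and 24.0 CPM in Trem2-/- non-foamy and 24.8, 22.5, 20.2 and 18.2 CPM in Trem2-/- foamy libraries. Every Trem2-/- library was above every WT library, by a much smaller margin than for *Arg1* and *Mrc1*, and cholesterol left the ranges overlapping in both genotypes. Trem2-/- cells exceeded WT cells by a log2FC of 0.64 without cholesterol (s.e. 0.11, adjusted p = 7.36e-05, edgeR) and 0.57 with it (s.e. 0.10, adjusted p = 0.00025). Of the exonic bases of *Il4ra*, 9.51% overlap *Gm44876* on the opposite strand, and the strand setting of the counting is not given in the sources used here.

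*Stat6* (chr10:127642986-127660957, plus strand), the transcription factor that the receptor activates, had 100 to 123 CPM in WT non-foamy, 109 to 131 CPM in WT foamy, 108 to 116 CPM in Trem2-/- non-foamy and 99.2 to 113 CPM in Trem2-/- foamy libraries, so all groups overlapped. Between the genotypes its log2FC was −0.05 without cholesterol (95% interval −0.21 to 0.11, adjusted p = 0.653, edgeR) and −0.13 with it (95% interval −0.28 to 0.02, adjusted p = 0.18). With library sizes scaled by total counts alone, the latter was −0.26 and passed the threshold (adjusted p = 0.0436), where the median of all genes also shifted by −0.129. These counts measure the transcript and not the phosphorylated protein.

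The transcription factors *Klf4* and *Egr2* were rare. *Klf4* (chr4:55527143-55532466, minus strand) had 2.13, 1.22, 2.73 and 2.05 CPM in WT non-foamy and 1.96, 1.83, 2.20 and 1.80 CPM in WT foamy libraries, and 2.28, 2.17 and 2.71 CPM in Trem2-/- non-foamy and 1.64, 2.86, 1.20 and 1.89 CPM in Trem2-/- foamy libraries. All ranges overlapped, and with 38 to 92 counts a library the 95% intervals were wide, from −0.32 to 0.80 for the log2FC between genotypes without cholesterol and from −0.56 to 0.48 with it. *Egr2* (chr10:67535475-67542188, plus strand) had 0.622, 1.16, 0.440 and 0.892 CPM in WT non-foamy and 1.25, 2.09 and 1.59 CPM in Trem2-/- non-foamy libraries, which did not overlap. The foamy libraries overlapped both of these ranges, at 1.21, 1.47, 1.04 and 1.03 CPM in WT and 1.17, 1.46, 1.39 and 0.817 CPM in Trem2-/- cells. *Egr2* was called in the comparison without cholesterol (log2FC 1.05 ± 0.32 s.e., adjusted p = 0.0104, edgeR) and had 0.03 with it (95% interval −0.58 to 0.64, adjusted p = 0.954), and the difference between these was not called (−1.02 ± 0.44 s.e., adjusted p = 0.216). The call rests on Trem2-/- non-foamy replicate 2, without which the log2 fold change was 0.84 and the adjusted p 0.0748. *Egr2* had 10 to 60 counts a library, and its count was an even number in 15 of 15 libraries. Counts from 2 to 20 were even for 85.2 to 87.1% of all genes' values in a library, and whether the mates of a read pair were counted singly is not given in the sources used here.

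*Chil3*, a secreted chitinase-like protein (chr3:106147554-106167564, minus strand), and *Cd163*, the scavenger receptor for haemoglobin (chr6:124304656-124330527, plus strand), had 0 counts in all 15 libraries. Per library, a count of 0 allows up to 3 counts, or 0.0669 to 0.132 CPM, a limit that covers counting error only. The limit takes counts as independent, and it would be higher if the mates of a read pair were counted singly. *Chil3* shares 26.9% of its 50-base stretches with other genes, mainly its neighbour *Chil4*, which also had 0 counts in every library, as did *Retnla*. *Tgm2*, a transglutaminase used as a marker of alternative activation (chr2:158116402-158146436, minus strand), had 57 counts in 12 libraries, at most 12 in 1, and 21.8% of its exonic bases overlap other genes. Its group means were 0.143 CPM in WT non-foamy, 0.125 in WT foamy, 0.0651 in Trem2-/- non-foamy and 0.107 in Trem2-/- foamy cells, and the groups overlapped. A higher *Arg1* and *Mrc1* in Trem2-/- cells thus came without detectable *Chil3*, *Retnla* or *Cd163* at this depth.

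The counts of called members stand beside those of all genes, of which many differed between the genotypes. Without cholesterol, 4 of the 6 tested members were called, all higher in Trem2-/- cells, where 43.6% of all tested genes were called (21.0% higher and 22.6% lower) and 46.1% did not overlap between the groups. With cholesterol, 3 of 6 were called, all higher, where 30.2% of all tested genes were called (14.3% higher and 15.9% lower) and 28.8% did not overlap. Scaling by total counts alone changed the split of all calls, from 48.1 to 29.4% higher without and from 47.4 to 23.3% higher with cholesterol, and left the 4 and 3 higher members called. The median log2 fold change of the 6 was 0.85 and 0.30, beside 0.02 and 0.00 over all tested genes. For the response to cholesterol, 1 of 6 members (*Mrc1*) was called in WT cells, where 2.80% of all tested genes were called and 9.71% did not overlap, and 0 of 6 in Trem2-/- cells, where edgeR called 0.140% and 9.26% did not overlap. In the latter, 1 member (*Arg1*) had an unadjusted p-value under 0.05 and DESeq2 called the same gene. For the difference between the responses, 1 of 6 members (*Arg1*) was called beside 3.64% of all tested genes.

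**Figure D2:**
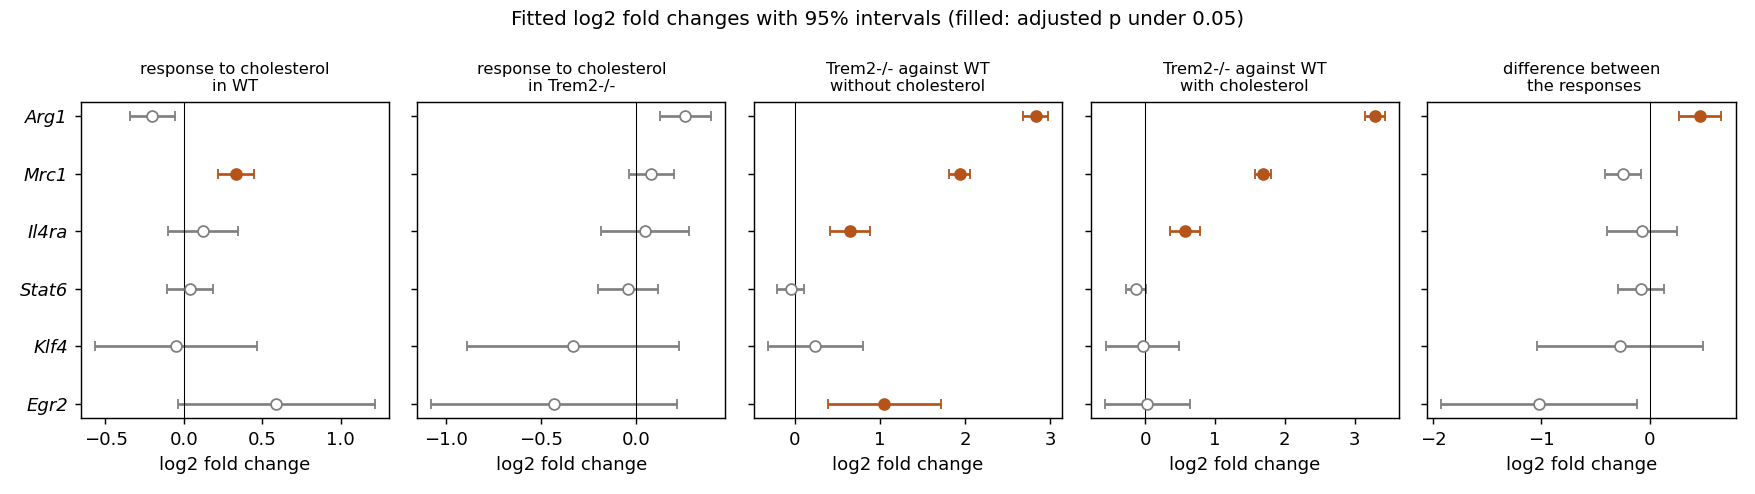
Fitted log2 fold changes of the 6 tested genes with 95% intervals in the 5 comparisons (1 panel each, with its own axis), filled where the edgeR adjusted p was under 0.05. *Arg1* and *Mrc1* lie far from 0 in both comparisons of the genotypes, at 2.83 and 1.94 without and 3.29 and 1.69 with cholesterol, and the other genes lie nearer to 0.

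Divided by the exonic length of each gene, the levels show how the order of the genes changed. In WT non-foamy cells *Stat6* was highest at 26.3 CPM per kb, followed by *Arg1* at 7.36, *Mrc1* at 6.11, *Il4ra* at 2.21, *Klf4* at 0.667 and *Egr2* at 0.229 CPM per kb, and the libraries of no neighbouring pair overlapped. In Trem2-/- foamy cells *Arg1* was highest at 62.6 CPM per kb, followed by *Stat6* at 24.8 and *Mrc1* at 24.7 CPM per kb, which overlapped, *Il4ra* at 3.56, and *Klf4* and *Egr2* at 0.623 and 0.356 CPM per kb, which also overlapped. *Arg1* moved from above 65.8% of the tested genes in WT non-foamy cells to above 94.5% in Trem2-/- foamy cells on this scale. Taking the longest transcript as the length exchanged *Arg1* and *Mrc1* in WT foamy cells, and *Stat6* and *Mrc1* in Trem2-/- foamy cells.

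**Figure D3:**
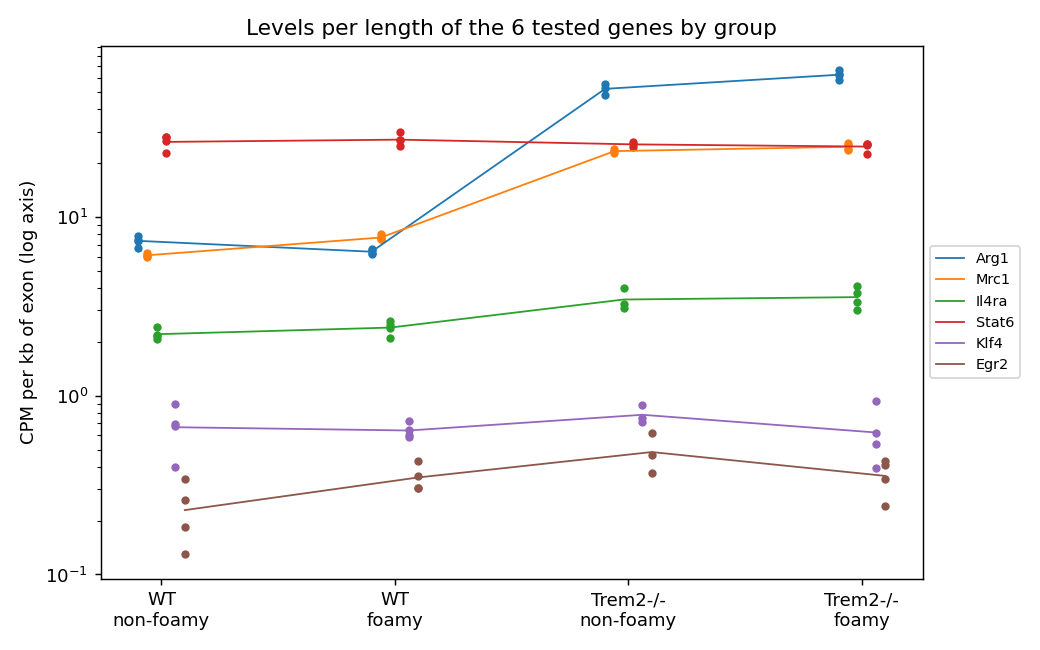
Levels of the 6 tested genes in CPM per kb of exon (log axis) in each library, with lines joining the group means. *Arg1* passes *Stat6* between WT foamy (6.40 against 27.1 CPM per kb) and Trem2-/- non-foamy cells (52.2 against 25.5), and *Mrc1* comes close to it.

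The ratio of *Arg1* to *Mrc1*, both per kb, was 1.21 ± 0.0943 in WT non-foamy, 0.833 ± 0.0137 in WT foamy, 2.23 ± 0.203 in Trem2-/- non-foamy and 2.53 ± 0.109 in Trem2-/- foamy cells, and no library of a group overlapped another group. Over the 15 libraries the log levels of *Arg1* and *Mrc1* had a Pearson correlation of 0.98, and within groups it was 0.04, so the libraries of a group did not order the genes alike. The libraries share their group, clone and scaling, so these correlations are descriptions. Among 9647 other genes whose level averaged 5 CPM or more, the gene most like *Arg1* over the 15 libraries was *H2-DMb1*, an MHC class II chaperone (r = 0.996, −0.03 within groups), and the gene most like *Mrc1* was *Hectd2* (r = 0.995, 0.40 within groups). Such likeness was common, with an r over 0.95 for 93 genes with *Arg1* and for 244 with *Mrc1*. For *Il4ra* it was *Slc11a1*, a metal transporter of phagosomes (r = 0.96, 0.76 within groups), and for *Stat6* it was *Usp22* (r = 0.95, 0.93 within groups). *Klf4* was most like *Zfp111* (r = 0.77) and *Egr2* most like *Galnt6* (r = 0.91).

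Beyond these 10 genes, 69 other genes of the pathway were looked at, of which 53 were tested. Without cholesterol, 23 were higher and 11 lower in Trem2-/- cells, which is 64.2% of the 53 beside 43.6% of all tested genes, and with cholesterol 15 were higher and 11 lower, or 49.1% beside 30.2%. With total counts alone these were 13 higher and 14 lower, and 12 higher and 11 lower. In WT cells 1 rose and 2 fell with cholesterol, and in Trem2-/- cells edgeR called 0 (8 at an unadjusted p under 0.05). Of the ligands, *Il4* had 1 to 24 counts a library, with 0.22 ± 0.139 CPM in WT and 0.354 ± 0.139 CPM in Trem2-/- non-foamy cells and no call, and *Il13* had 0 counts in all 7 Trem2-/- libraries and at most 6 in a WT library.

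Of 10 tested receptor and signalling genes, 6 were higher and 2 lower in Trem2-/- cells without cholesterol (80% called, beside 43.6% of all tested genes). With it 2 were higher and 1 lower, and this 30% is the same as the background of 30.2%. *Jak2*, a Janus kinase, rose from 10.1 ± 1.31 CPM in WT to 19.8 ± 0.746 CPM in Trem2-/- non-foamy cells (log2FC 0.97 ± 0.11 s.e., adjusted p = 2.29e-07, edgeR) and was higher by 0.53 with cholesterol (adjusted p = 0.000386). *Il13ra1*, a chain that joins *Il4ra* in a receptor for IL-4 and IL-13, was higher by 0.45 (adjusted p = 0.000108) and 0.27 (adjusted p = 0.01), the latter not called without Trem2-/- foamy replicate 4 (adjusted p = 0.0522). *Ptpn6* went the other way, with 155 ± 10.4 CPM in WT and 109 ± 4.55 CPM in Trem2-/- non-foamy cells. In foamy cells *Ptpn6* had 142 ± 7.77 CPM in WT and 105 ± 8.36 CPM in Trem2-/- cells. *Il2rg* had 58.9 ± 5.41 and 51.6 ± 2.05 CPM in WT and Trem2-/- non-foamy cells, and 54.6 ± 3.14 and 54.3 ± 2.36 CPM in foamy cells. *Cish*, a feedback inhibitor of cytokine signalling that STAT proteins induce, had 11 to 41 counts a library and was called without cholesterol (1.03 ± 0.38 s.e., adjusted p = 0.0304), but not when WT non-foamy replicate 4 (adjusted p = 0.0705) or Trem2-/- non-foamy replicate 1 or 2 (0.0636 and 0.138) was left out, nor without a filter on low counts (0.0586).

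Of 10 other tested transcription factors of alternative activation, 4 (40%) were called without and 2 (20%) with cholesterol, all higher, and the other 6 and 8 were not called. These shares are below the 43.6% and 30.2% of all tested genes that were called in either direction. They are above the 21.0% and 14.3% of all tested genes that were called higher. How the list of 10 stands to the background thus depends on the direction counted. *Bhlhe40*, a repressor that controls macrophage proliferation and cytokine genes, had 71.6 ± 5.81 and 127 ± 1.24 CPM in WT and Trem2-/- non-foamy cells (0.82 ± 0.07 s.e., adjusted p = 1.89e-09) and 83.0 ± 5.13 and 107 ± 4.51 CPM in foamy cells (0.37, adjusted p = 0.000121). Its response to cholesterol differed between the genotypes by −0.46 ± 0.09 s.e. (adjusted p = 0.00737), and the genotypes lay closer together with cholesterol. *Maf*, a factor of IL-10 expression and macrophage identity, was higher by 0.52 and 0.34 (adjusted p = 3.36e-07 and 8.94e-05).

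Of 12 tested other markers of alternative activation, 7 were higher and 1 lower in Trem2-/- than in WT non-foamy cells, and 6 were higher and 1 lower in foamy cells. That is 66.7% and 58.3% called, beside 43.6% and 30.2% of all tested genes. *Ccl24*, an eosinophil attractant, had 1.28 ± 0.389 CPM in WT and 3.32 ± 0.651 CPM in Trem2-/- non-foamy cells (1.34 ± 0.24 s.e., adjusted p = 8.53e-05), and was higher by 1.44 with cholesterol (adjusted p = 5.53e-05). The C-type lectins *Mgl2* and *Clec10a* were higher by 0.68 and 0.33 without and by 1.08 and 0.55 with cholesterol (adjusted p = 6.61e-05, 0.00556, 1.71e-07 and 3.11e-05). The 1 lower marker was *Msr1*, a scavenger receptor that takes up modified lipoproteins, at −0.64 and −0.42 (adjusted p = 1.37e-05 and 0.00102). *Alox15*, a lipoxygenase, was called with cholesterol (1.72 ± 0.58 s.e., adjusted p = 0.0262) on 4 to 37 counts a library and with overlapping groups, and the call was lost without WT foamy replicate 1 or 2 or Trem2-/- foamy replicate 1 or 3 (adjusted p of 0.0638 to 0.130).

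**Figure D4:**
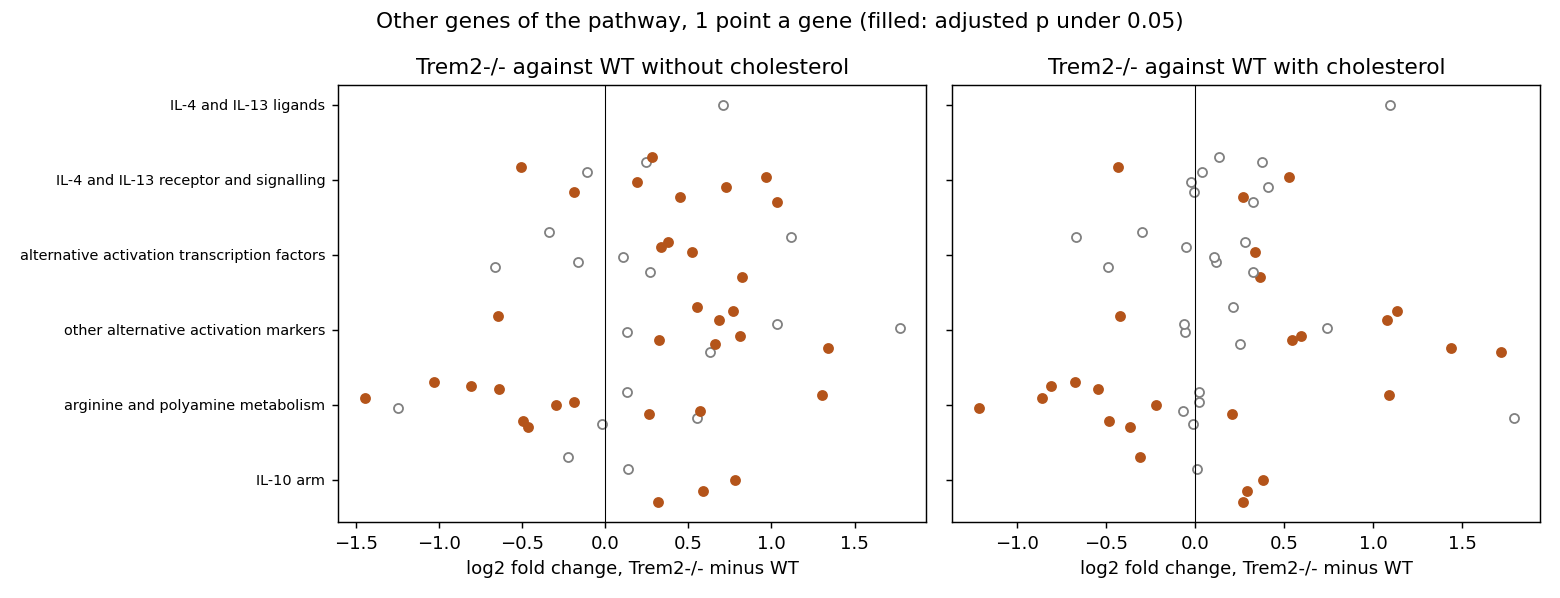
Log2 fold changes of Trem2-/- against WT for the 53 tested genes of 6 lists (1 point a gene), without cholesterol on the left and with it on the right, filled where the edgeR adjusted p was under 0.05. In the marker list 7 and 6 filled points lie above 0 and 1 below it, whereas in the arginine and polyamine list 8 lie below 0 in each panel.

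Of 15 tested genes of arginine and polyamine metabolism, which use arginine in several ways, 3 were higher and 8 lower in Trem2-/- cells without cholesterol (73.3% called, beside 43.6% of all tested genes), and 2 were higher and 8 lower with it (66.7%, beside 30.2%). *Odc1*, the ornithine decarboxylase that starts polyamine synthesis, had 224, 219, 231 and 231 CPM in WT non-foamy and 82.5, 79.7 and 87.1 CPM in Trem2-/- non-foamy libraries, so that it was 1.45 lower on the log2 scale (log2FC −1.45 ± 0.07 s.e., adjusted p = 1.93e-13). In foamy cells its level was 164, 165, 171 and 191 CPM in WT and 94.5, 93.8, 96.0 and 97.2 CPM in Trem2-/- libraries (−0.86 ± 0.06 s.e., adjusted p = 3.05e-10). Levels of *Odc1* and *Arg1* were thus in opposite order between the genotypes. *Odc1* was lower in WT foamy than in WT non-foamy cells (−0.39 ± 0.06 s.e., adjusted p = 0.000359, edgeR). Its response was higher by 0.59 in Trem2-/- cells (s.e. 0.09, adjusted p = 0.000296), as for *Arg1*.

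*Srm* and *Sms*, which make spermidine and spermine, were also lower in Trem2-/- cells. *Srm* had 124 ± 8.07 and 60.6 ± 3.90 CPM in WT and Trem2-/- non-foamy cells (−1.03 ± 0.07 s.e., adjusted p = 1.53e-10) and was lower by 0.67 on the log2 scale with cholesterol (−0.67, adjusted p = 5.69e-08). *Sms* had 87.8 ± 6.63 and 50.2 ± 3.33 CPM (−0.81, adjusted p = 2.07e-08) and was at −0.81 with cholesterol too (adjusted p = 1.56e-08). *Sat1*, the acetyltransferase that starts polyamine breakdown and export, went the other way, from 138 ± 15.6 to 342 ± 20.9 CPM (1.31 ± 0.09 s.e., adjusted p = 2.71e-10) without and from 154 ± 17.9 to 329 ± 33.3 CPM with cholesterol (1.09, adjusted p = 5.23e-09). The fall of *Srm* with cholesterol in WT cells (−0.24, adjusted p = 0.0403) and the difference between its responses (0.35, adjusted p = 0.0402) were close to the threshold. The former was lost without any 1 of the WT libraries other than non-foamy replicate 3 and foamy replicate 4 (adjusted p of up to 0.115) and when the WT libraries were fitted alone (0.116), and the latter without any 1 library other than WT non-foamy replicates 1 and 3, WT foamy replicate 4, Trem2-/- non-foamy replicate 3 and Trem2-/- foamy replicate 4 (adjusted p of up to 0.126).

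**Figure D5:**
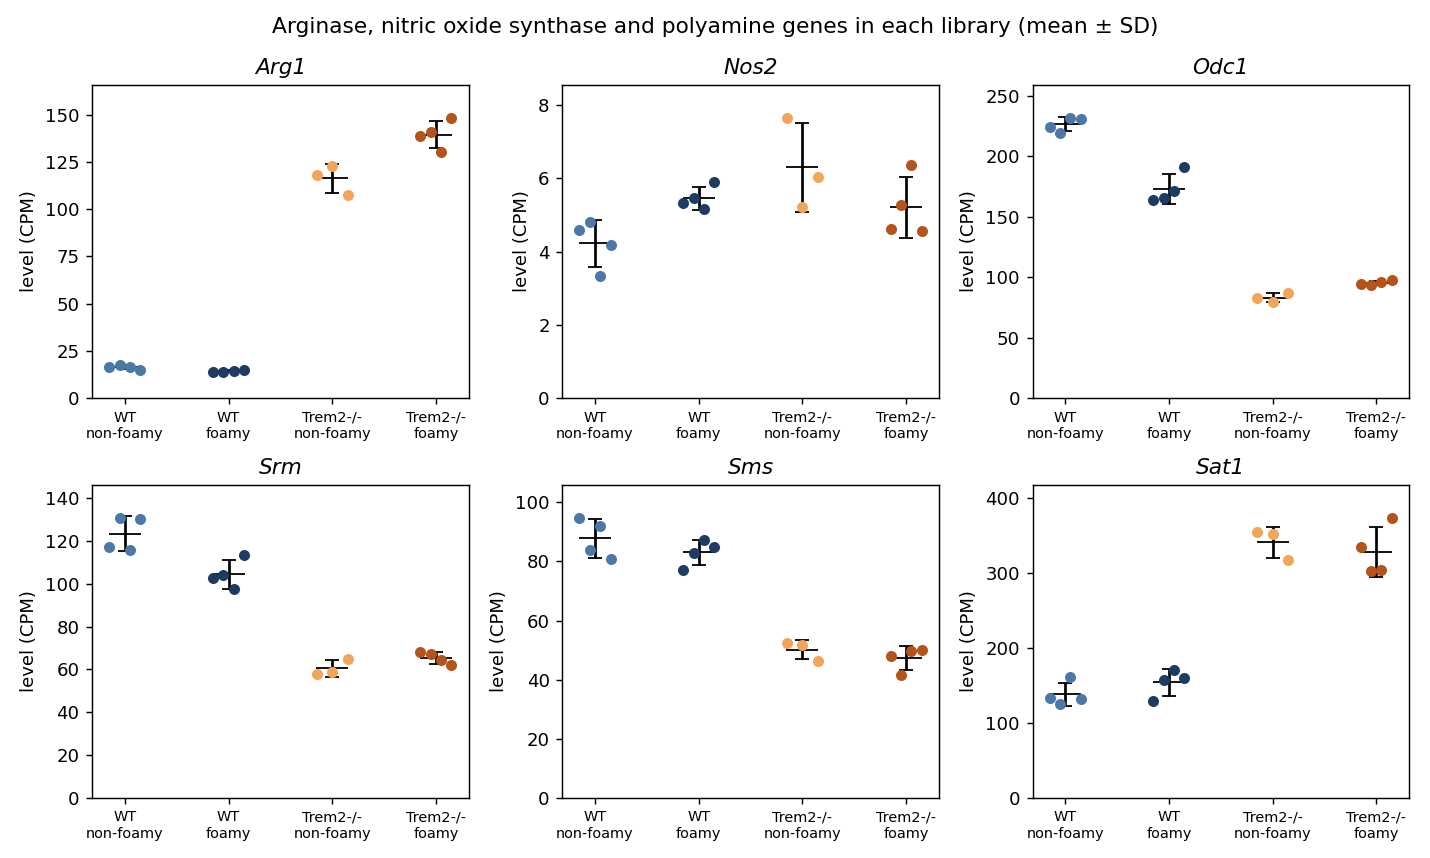
Levels in CPM of *Arg1*, *Nos2*, *Odc1*, *Srm*, *Sms* and *Sat1* in each library by group (linear axes from 0), with bars for the mean ± s.d. In Trem2-/- libraries *Arg1* and *Sat1* lie above and *Odc1*, *Srm* and *Sms* below all WT libraries, and *Nos2* stays between 3.34 and 7.64 CPM.

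*Nos2* had 4.59, 4.80, 3.34 and 4.17 CPM in WT non-foamy, 5.31, 5.48, 5.17 and 5.90 CPM in WT foamy, 7.64, 5.23 and 6.03 CPM in Trem2-/- non-foamy and 4.61, 5.28, 6.36 and 4.57 CPM in Trem2-/- foamy libraries. It was called higher in Trem2-/- cells without cholesterol (0.57 ± 0.16 s.e., adjusted p = 0.00552, edgeR), a call that was lost without Trem2-/- non-foamy replicate 1 (0.41, adjusted p = 0.0730) and with total counts alone (0.42, adjusted p = 0.0569), and it was not called with cholesterol (−0.07, adjusted p = 0.769). The ratio of *Arg1* to *Nos2* per kb was 7.81 ± 1.25 in WT non-foamy and 5.18 ± 0.273 in WT foamy cells, and 37.5 ± 8.17 and 54.2 ± 10.2 in Trem2-/- cells. The 2 genotypes did not overlap in this ratio. *Nos3*, the endothelial synthase, was called lower with cholesterol (−1.21, adjusted p = 0.049) on 4 to 49 counts a library, with overlapping groups and with 32.3% of its exonic bases overlapping other genes, and the call was lost without replicate 2, 3 or 4 of either foamy group (adjusted p of up to 0.164).

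Of 5 tested genes of the IL-10 arm, the anti-inflammatory cytokine branch that overlaps with alternative activation, 3 were higher in Trem2-/- cells without cholesterol (60% called, beside 43.6% of all tested genes), and 3 were higher and 1 lower with it (80%, beside 30.2%). *Il10rb*, a receptor chain, had 64.4 ± 3.19 and 111 ± 9.63 CPM in WT and Trem2-/- non-foamy cells (0.78 ± 0.07 s.e., adjusted p = 5.73e-09) and was higher by 0.38 with cholesterol (adjusted p = 9e-05), with 14.9% of its exonic bases in an overlapping gene. It rose with cholesterol in WT cells (0.30, adjusted p = 0.0134), and its responses differed by −0.40 ± 0.10 s.e. (adjusted p = 0.0224). Without WT foamy replicate 2 these calls were lost (adjusted p = 0.0590 and 0.0553), and the latter also without Trem2-/- non-foamy replicate 1 or 2 (0.0791 and 0.0852).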

How the data were processed

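RNA-seq of 15 BV2 libraries was analysed. The authors deposited raw read counts per gene, 1 table of whole numbers per library. Per the study's methods, reads were trimmed with Trimmomatic, aligned to GRCm38 with HISAT2 and counted with featureCounts. Versions, strand setting and counting of mates were not given in the sources used here, and the even counts described for *Egr2* were not explained.

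The counts were fitted in edgeR 4.0.16 (R 4.3.3) with glmQLFit and glmQLFTest, TMM factors (0.918 to 1.11), filterByExpr (minimum count 10) and 1 mean per group over all 15 libraries. This kept 14237 of 54390 genes, and the biological coefficient of variation was 10.2%. Lengths, overlaps and shared stretches came from GENCODE M21. Promoter windows came from RefSeq (GRCm38.p6). Of the 70 pathway genes listed, 1 (*Ear11*) was not analysed here. Alternatives were DESeq2 1.42.0, RLE factors, total counts, other filters, only the groups compared, a replicate block, a minimum log2 fold change of 1, each library left out, and the longest transcript as length.

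Members and lists were chosen with earlier results of these data known. Named genes were the members, the called gene with the largest change per list and genotype comparison, genes called in a response or the difference, *Il4*, *Il13*, *Nos2*, *Retnla*, *Chil4*, *Trem2* and the most alike genes. *Il13ra1*, *Ptpn6*, *Il2rg*, *Maf*, *Mgl2*, *Clec10a*, *Msr1*, *Sms*, *Sat1* and *Jak2* without cholesterol were named after their values were seen. The code was tested on simulated data.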

Additional observations from a re-analysis of the deposited data

Results flagged for a closer look

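Of the 24 groups of libraries examined for a single library far from the rest, 3 were picked out, and chance picks out about 1 in 20. *Arg2* was highest in WT non-foamy replicate 1 at 0.0519 CPM and in Trem2-/- foamy replicate 3 at 0.0316 CPM, with the other libraries of these groups at 0, which is a matter of 2 counts and 1 count. Any count in a single library stands apart when the rest are at 0, so the rate of 1 in 20 does not hold for *Arg2*. *Stat6* was lowest in Trem2-/- foamy replicate 4, at 99.2 CPM against 112 to 113 CPM in the other 3 libraries of the group.

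The response to cholesterol differed between Trem2-/- and WT cells, by the test of the difference itself (edgeR), for 5 genes described here. The log2 difference was 0.46 for *Arg1*, 0.59 for *Odc1* and 0.35 for *Srm*, which had a higher response in Trem2-/- cells, and −0.46 for *Bhlhe40* and −0.40 for *Il10rb*, which had a lower one.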

How the results depend on the processing

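The calls of *Arg1*, *Mrc1* and *Il4ra* between the genotypes, of *Mrc1* in the WT response and of *Arg1* in the difference held in every alternative except, for the calls of smaller size, a minimum absolute log2 fold change of 1. That minimum left 0 members called in the WT response and 0 in the difference, and of the pathway genes 0 in the WT response, 5 (from 34) without cholesterol, 6 (from 26) with it and 0 in the difference. DESeq2 called 1 member in the Trem2-/- response, 2 in the difference and 6 pathway genes (from 3) in the WT response, where both other filters on low counts gave 5. Leaving out 1 library gave 1 (without WT foamy replicate 2) to 4 pathway genes in the WT response and 2 (without WT foamy replicate 2, Trem2-/- non-foamy replicate 1 or 2) to 4 in the difference. Over all genes DESeq2 called 881, 56 and 985 genes in the WT response, the Trem2-/- response and the difference, against 399, 20 and 518 with edgeR, and no filter gave 607 and 61 in the responses. The cause of these changes was not tested.

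Some values that were not called changed sign. *Egr2* with cholesterol was −0.10 with total counts alone and −0.072 to 0.17 with 1 library left out. Leaving out 1 library gave ranges of −0.020 to 0.073 (*Stat6*) and −0.23 to 0.10 (*Klf4*) in the WT response, −0.032 to 0.17 (*Il4ra*) and −0.067 to 0.0015 (*Stat6*) in the Trem2-/- response, −0.31 to 0.13 for *Klf4* between genotypes with cholesterol, and −0.15 to 0.043 for *Il4ra* in the difference.

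A pairing of libraries by replicate number was not evident, as same-numbered libraries had deviations correlated by −0.20 to 0.30 and at most 2 of 4 pairs of 2 groups passed 0.1. Between WT non-foamy and WT foamy libraries the highest value was 0.295 for the same number and 0.282 for other numbers. With so few libraries a group, these values cannot exclude a pairing. With a replicate block 1, 0, 4, 3 and 1 members were called in the 5 comparisons, as without it, and over all genes the difference fell to 294 calls. *Srm* in the WT response (adjusted p = 0.0623) and the difference (0.0812), *Cish* (0.0716) and *Nos3* (0.0775) were not called under the block. With total counts alone *Clec10a* (0.121), *Cish* (0.0619), *Il13ra1* with cholesterol (0.0785) and *Srm* in the WT response (0.0957) and the difference (0.0874) were not called.

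The depth limits *Egr2*, *Klf4*, *Cish*, *Alox15* and *Nos3*, which had under 100 counts a library. Fitting only the groups compared was not run for the difference, which needs all of them.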
